A study of Mus musculus with 18 samples.

Results

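AMPA and NMDA receptors are the glutamate-gated ion channels that carry most of the fast excitatory signaling between neurons. Both are tetramers of subunits that are each encoded by a separate gene. AMPA receptors are built from GRIA1 to GRIA4 and open within milliseconds of glutamate release. NMDA receptors combine the obligatory GRIN1 subunit with GRIN2 subunits (GRIN2A to GRIN2D) or with GRIN3 subunits, need a co-agonist (glycine or D-serine) as well as glutamate, and admit calcium when the membrane is depolarized, which is how they start the synaptic strengthening studied as a cellular basis of memory in the hippocampus. The GRIA2 subunit, after RNA editing, makes AMPA receptors largely impermeable to calcium, and GRIN2A and GRIN2B set the kinetics of most forebrain NMDA receptors. The genes described here are these AMPA and NMDA receptor subunit genes in a hippocampus RNA-seq table, chosen by symbol: 4 AMPA subunit genes (GRIA1, GRIA2, GRIA3 and GRIA4) and 6 NMDA subunit genes (GRIN1, GRIN2A, GRIN2B, GRIN2C, GRIN2D and GRIN3A). All 10 were among the 15644 genes of the table, and 10 of 10 passed the filter on low counts, a mean above 10 counts over the mice.

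The study asked whether 3TC, the nucleoside drug lamivudine that blocks reverse transcriptase, alters the aging brain. Hippocampi of 18 male and female C57/B6 mice were sequenced, 6 mice in each of 3 groups with 3 females and 3 males each. Older 3TC-treated mice were 20 months old and had received 2 mg/mL 3TC in their drinking water for 6 weeks. Older mice were 20 months old, younger mice were 9 months old, and both of these groups had the same water without the drug. In the mouse names, D marks older 3TC-treated, C older and Y younger mice, the next letter marks females (F) or males (M), and a number ends the name. The tissue was whole hippocampus, so a value is a mean over all its cells, and fewer cells of a type cannot be told apart from less RNA per cell.

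Total counts, genes and repeats together, were 34.6 to 49.1 M per mouse, and repeats took 63.4% to 85.7% of them. Levels are given as CPM, counts per M of the library of genes and repeats after TMM scaling. The subunit genes had between 209 counts (GRIN2D) and 17946 counts (GRIA2) per mouse. One treated female, DFO4, stood apart. The mean log2 CPM of 15 thalamus markers was 4.68 in DFO4 and 2.49 to 3.35 in the other 17 mice, and DFO4 was the highest of all mice for 14 of the 15 genes. It was also the highest for 9 of 9 oligodendrocyte markers, and the lowest for 8 of 9 CA1 pyramidal markers and 7 of 12 dentate granule markers. DFO4 was therefore kept in the main values, and each comparison is also given without it. The markers of hippocampal neurons (CA1, CA2 and CA3, dentate granule) were otherwise detected in every mouse, and none of the marker genes in the table was at 0 in any mouse.

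Within the mean of the 18 mice, levels per kb of exon spanned a wide range. GRIA1 had the highest level per kb, 38.0 ± 11.2 CPM per kb (SD, n = 18), above 99.5% of genes. It was higher per kb than GRIA2 in 18 of 18 mice. GRIA2 followed at 15.4 ± 4.398 CPM per kb and was above GRIN1 in 17 of 18 mice. GRIN1, at 6.59 ± 1.30 CPM per kb, and GRIA3, at 6.34 ± 1.53 CPM per kb, did not differ beyond their spread, GRIN1 being the higher in 12 of 18 mice. GRIN2B (4.49 ± 1.08), GRIA4 (4.06 ± 1.03) and GRIN2A (3.69 ± 0.880 CPM per kb) were close together, with GRIN2B above GRIA4 in 15 of 18 mice and GRIA4 above GRIN2A in 9 of 18. GRIN2C, a subunit that astrocytes and cerebellar granule cells are known to express, had 2.92 ± 0.352 CPM per kb. GRIN3A, a subunit whose receptors pass little calcium, had 1.46 ± 0.295 CPM per kb. GRIN2D, known from interneurons and from deep structures such as the thalamus, was the least abundant at 1.20 ± 0.303 CPM per kb and was below GRIN3A in 16 of 18 mice. The exon lengths are those of all annotated transcripts joined, and long untranslated exons, as in GRIN2B with 24842 bp, lower its value per kb if they are little used. The joined exons had 6043 bp for GRIA1 and 15548 bp for GRIA2. Before division by length the mean over the 18 mice was 229.6 CPM for GRIA1 and 240.0 CPM for GRIA2. The order of these genes per kb therefore rests on the lengths.

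In the GRCm38 assembly (mm10), GRIA1 lies on the plus strand of chromosome 11 (57011387 to 57330244) and GRIA3 on the plus strand of chromosome X (41400854 to 41678601). The other members lie on minus strands: GRIA2 on chromosome 3 (80681450 to 80802835), GRIA4 on chromosome 9 (4417896 to 4796234), GRIN1 on chromosome 2 (25291181 to 25319187), GRIN2A on chromosome 16 (9567898 to 9995560) and GRIN2B on chromosome 6 (135713233 to 136173511). GRIN2C lies on chromosome 11 (115249169 to 115267243), GRIN2D on chromosome 7 (45831883 to 45878378) and GRIN3A on chromosome 4 (49661611 to 49845744). Counts are sums over all exons of a gene and do not separate isoforms, such as the flip and flop forms of the AMPA subunits. Antisense genes share 1307 exon bases with GRIN1 and 643 with GRIN2D, and GRIN2B shares 143 exon bases with a lincRNA. Whether the counting used strand is not given in the sources used here, so reads from these partners cannot be told apart from those of the subunit genes.

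RefSeq promoter sequence (GRCm38.p6, the 250 bases before the annotated start) was matched for 5 of 10 genes: GRIA2, GRIA4, GRIN1, GRIN2C and GRIN2D. GRIA2 (chr3:80802836-80803085) and GRIA4 (chr9:4796235-4796484), both on the minus strand, are shown because these partners in AMPA receptors departed in opposite directions in DFO4. They are written 5′ to 3′ with CG dinucleotides in capitals.
GRIA2: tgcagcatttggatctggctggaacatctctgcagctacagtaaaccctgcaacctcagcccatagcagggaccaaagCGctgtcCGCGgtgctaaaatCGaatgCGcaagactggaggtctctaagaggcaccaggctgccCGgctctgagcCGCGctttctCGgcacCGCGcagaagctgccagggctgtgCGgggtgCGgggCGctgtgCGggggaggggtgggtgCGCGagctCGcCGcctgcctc
GRIA4: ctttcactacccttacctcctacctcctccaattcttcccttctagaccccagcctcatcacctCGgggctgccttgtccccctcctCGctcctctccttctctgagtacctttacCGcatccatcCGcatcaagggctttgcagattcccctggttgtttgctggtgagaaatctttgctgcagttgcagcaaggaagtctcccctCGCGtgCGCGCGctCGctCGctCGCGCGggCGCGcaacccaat
The GRIA2 window holds 19 CG dinucleotides and the GRIA4 window 16, against a median of 6 over 32851 promoter windows of the same length. In the GRIA4 window most lie next to the start. TATAAA, searched on both strands, was in neither window and is in 12.4% of all windows. GGGCGG, also searched on both strands, was in neither and is in 32.7% of all windows. Of the other 3, GRIN1 has 27, GRIN2C 15 and GRIN2D 9 CG dinucleotides, and GRIN2C alone holds GGGCGG. The GRIN2D window starts from another annotated start and lies inside the gene span given above.

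No subunit gene differed between groups at an adjusted p under 0.05 (edgeR quasi-likelihood test, Benjamini-Hochberg over 16774 genes and repeats). In older 3TC-treated against older mice, 0 of 10 were called, where 0% of all features were, and 2 of 10 (GRIA4 and GRIN3A) had an unadjusted p under 0.05, where 1.16% of all features did. In older against younger mice, 0 of 10 were called against 0.0119% of all features, and 0 of 10 had an unadjusted p under 0.05 against 0.399%. In older 3TC-treated against younger mice, 0 of 10 were called against 0.0119%, and 1 of 10 (GRIA4) had an unadjusted p under 0.05 against 1.72%. DESeq2 likewise called 0 members in each comparison, with 2 in the 3TC comparison, 0 with aging and 1 against younger mice at an unadjusted p under 0.05. Without DFO4, 0 of 10 were called in each comparison, against 0% of all features for 3TC and 0.0119% for each of the others, and 1 of 10 (GRIA4) had an unadjusted p under 0.05 with 3TC, where 0.703% of all features did. The 3TC comparison shares its older mice with the aging comparison and its treated mice with the comparison against younger mice, so their values are given side by side only.

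**Figure D1:**
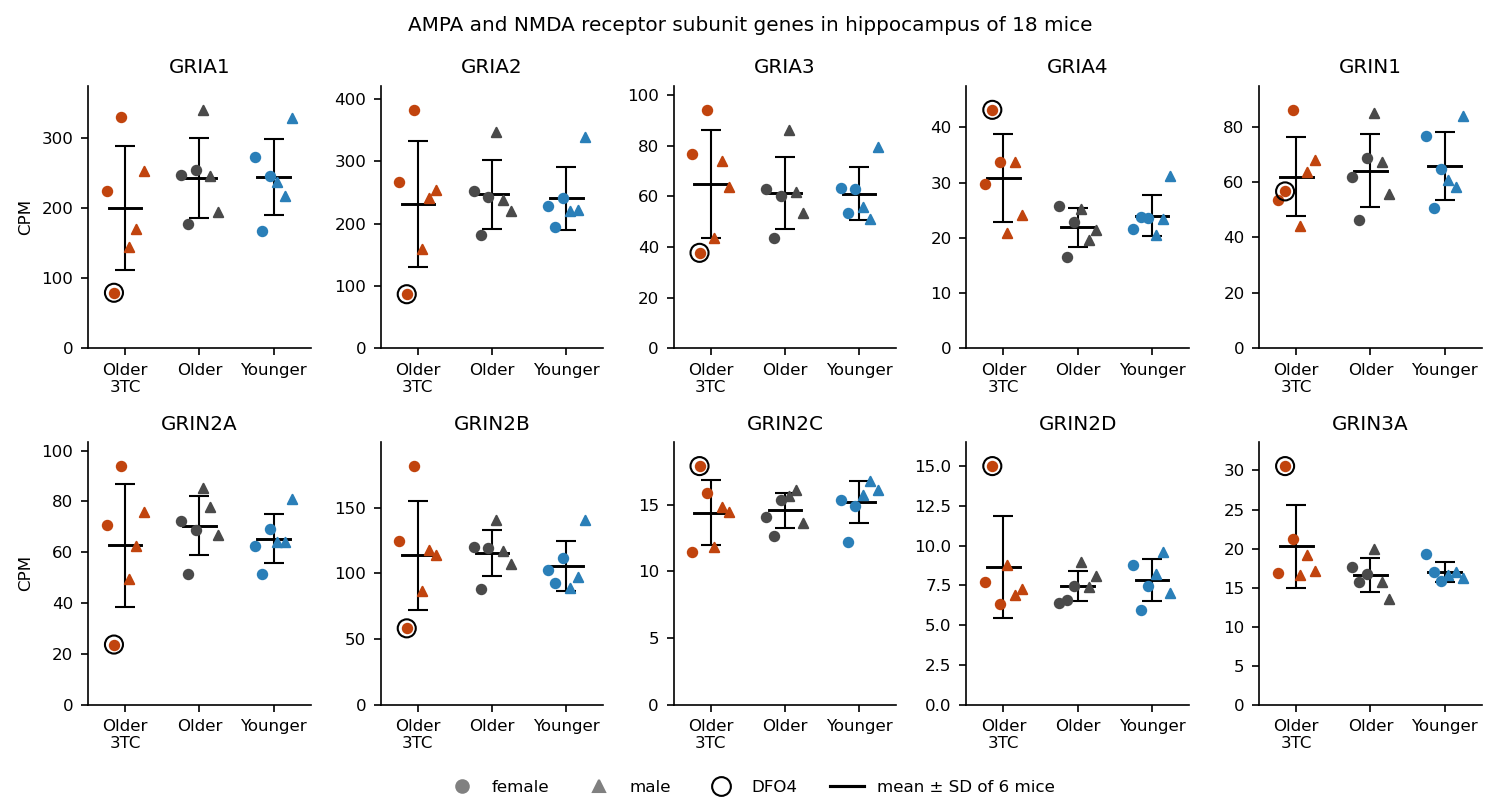
Level of each subunit gene (CPM, linear axis from 0) in each mouse, with older 3TC-treated mice left of older and younger mice, females as circles left of males as triangles, bars for mean ± SD of 6 mice and a ring around DFO4. The groups overlap for all 10 genes, and DFO4 is lowest of 18 mice for GRIA1, GRIA2, GRIA3, GRIN2A and GRIN2B and highest for GRIA4, GRIN2C, GRIN2D and GRIN3A.

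Among the AMPA subunits, GRIA4 showed the largest group difference in size. GRIA4 makes fast-gating AMPA receptors and is known from interneurons and thalamic neurons. It had 29.7 CPM in DFO8, 43.2 in DFO4, 33.7 in DFO5, 20.8 in DMO5, 33.7 in DMO2 and 24.2 in DMO1, the treated mice, against 25.7 CPM in CFO3, 16.5 in CFO2, 22.9 in CFO1, 25.3 in CMO6, 19.5 in CMO3 and 21.5 in CMO1, the older mice. The treated mice DFO8, DFO4, DFO5 and DMO2 were above every older mouse, while DMO5 and DMO1 lay within the range of the older mice. Younger mice had a lowest, median and highest value of 20.4, 23.5 and 31.2 CPM. The log2 fold change of treated over older mice was 0.49 (SE 0.16, 95% interval 0.17 to 0.82, unadjusted p = 0.00481 and adjusted p = 0.9999 by edgeR), and GRIA4 ranked 8 by p among the 15635 genes. Without DFO4 it was 0.38 (95% interval 0.07 to 0.68, unadjusted p = 0.0185). It was 0.40 to 0.52 over the 12 alternative settings that kept all mice, with an unadjusted p under 0.05 in 10 of them, and 0.38 to 0.59 when 1 mouse was left out. The adjusted p was 0.616 or higher in all of these. Of 15 neocortex markers, 14 were above 0 in the same comparison, with and without DFO4, and GRIA4 had r = 0.37 with the level of that list over 18 mice and 0.70 without DFO4. With that list as a term, in a fit of all 18 mice, the GRIA4 difference was 0.47 (unadjusted p = 0.0130 by edgeR). DFO4 was the highest mouse for 5 of the 15 list genes and the lowest for 4. The fit with this term was not run without DFO4, so the part of the list in the difference was not tested there. Against younger mice the log2 fold change of treated mice was 0.36 (SE 0.16, unadjusted p = 0.0305), and 0.24 without DFO4 (unadjusted p = 0.111). Older against younger mice gave -0.13 (SE 0.16, unadjusted p = 0.410).

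GRIA1, the main AMPA subunit of hippocampal pyramidal cells and a substrate of the kinases that regulate synaptic strength, had a lowest, median and highest level of 79.3, 197.5 and 330.0 CPM in older 3TC-treated mice, 176.8, 246.7 and 340.5 CPM in older mice and 167.8, 241.6 and 328.7 CPM in younger mice. The groups overlapped over most of their range, and 3 of 6 treated mice were below every older mouse. The log2 fold change was -0.28 with 3TC (SE 0.26, unadjusted p = 0.285), -0.12 without DFO4 (unadjusted p = 0.601), -0.48 without DFO5 (unadjusted p = 0.0660) and -0.01 with aging (95% interval -0.54 to 0.52). GRIA2, which determines calcium permeability, had 86.8, 247.9 and 382.9 CPM in older 3TC-treated mice, 181.5, 241.2 and 347.1 CPM in older mice and 194.0, 225.2 and 338.7 CPM in younger mice. The treated mice spanned the range of both other groups on either side. Its log2 fold change was -0.09 with 3TC (SE 0.25), 0.08 without DFO4 and 0.04 with aging. GRIA3, the AMPA subunit encoded on the X chromosome, had 37.7, 68.8 and 94.2 CPM in older 3TC-treated mice, 43.4, 61.0 and 86.4 CPM in older mice and 51.1, 59.3 and 79.6 CPM in younger mice. Its log2 fold change was 0.08 with 3TC (SE 0.20), 0.20 without DFO4 and 0.01 with aging. For GRIA1, GRIA2 and GRIA3 the treated group was the most variable: the coefficient of variation of GRIA1 was 44.0% in treated mice, 32.4% in treated mice without DFO4, 23.5% in older and 22.0% in younger mice. At this spread, a difference in GRIA1 of the size seen in GRIA4 lies within the 95% interval of the aging comparison.

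Of the NMDA subunits, GRIN3A had the smallest p in the 3TC comparison. GRIN3A had 16.7, 18.2 and 30.6 CPM (lowest, median and highest) in older 3TC-treated mice, 13.5, 16.2 and 20.0 CPM in older mice and 15.8, 16.8 and 19.3 CPM in younger mice. All 6 treated mice were above the mean of the older mice, but only DFO4 and DFO5 were above the highest older mouse. The log2 fold change with 3TC was 0.29 (SE 0.13, unadjusted p = 0.0391, adjusted p = 0.9999 by edgeR), and 0.14 without DFO4 (unadjusted p = 0.180). An unadjusted p under 0.05 was kept in 12 of 18 fits that left out 1 mouse and in 8 of 12 other settings, with a log2 fold change of 0.16 to 0.41 over those settings.

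GRIN1, the subunit every NMDA receptor needs, had 44.3, 60.1 and 86.1 CPM in older 3TC-treated mice, 46.4, 64.6 and 84.9 CPM in older mice and 50.5, 62.7 and 83.7 CPM in younger mice. These ranges nearly coincide, and the log2 fold change was -0.05 with 3TC (SE 0.17), -0.03 without DFO4 and -0.03 with aging. GRIN2A, the GRIN2 subunit that increases after birth and gives fast-closing receptors, had 23.6, 66.7 and 93.9 CPM in older 3TC-treated mice, 51.2, 70.7 and 85.4 CPM in older mice and 51.5, 64.1 and 81.0 CPM in younger mice. Its log2 fold change was -0.17 with 3TC (SE 0.22) and 0.00 without DFO4, and 0.11 with aging (SE 0.22). GRIN2B, which gives slow-closing receptors and binds the kinase CaMKII, had 58.0, 115.8 and 181.6 CPM in older 3TC-treated mice, 87.9, 118.1 and 140.8 CPM in older mice and 89.0, 99.99 and 140.8 CPM in younger mice. Of the older mice, 5 of 6 were above the mean of the younger mice, and the log2 fold change with aging was 0.13 (SE 0.20, unadjusted p = 0.538). With 3TC it was -0.02, and 0.11 without DFO4. GRIN2C had 11.5, 14.6 and 17.9 CPM in older 3TC-treated mice, 12.7, 14.7 and 16.1 CPM in older mice and 12.2, 15.5 and 16.8 CPM in younger mice, with the smallest standard error of the 10 genes (log2 fold change -0.02 with 3TC, -0.06 with aging, SE 0.11 each). GRIN2D had 6.32, 7.48 and 14.998 CPM in older 3TC-treated mice, 6.40, 7.43 and 8.94 CPM in older mice and 5.95, 7.84 and 9.58 CPM in younger mice. Its log2 fold change with 3TC was 0.21 (SE 0.17), and -0.02 without DFO4, so its sign changed without that mouse, as it did for GRIA2, GRIN2A and GRIN2B. For each of these genes the sign also changed under a setting that kept all mice, as given below.

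Over the 10 genes, the 3TC difference was above 0 for 4 and below 0 for 6 with a median of -0.02, beside a median of 0.01 over all genes. The aging difference was above 0 for 4 and below 0 for 6 with a median of -0.02, beside -0.01 over all genes.

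**Figure D2:**
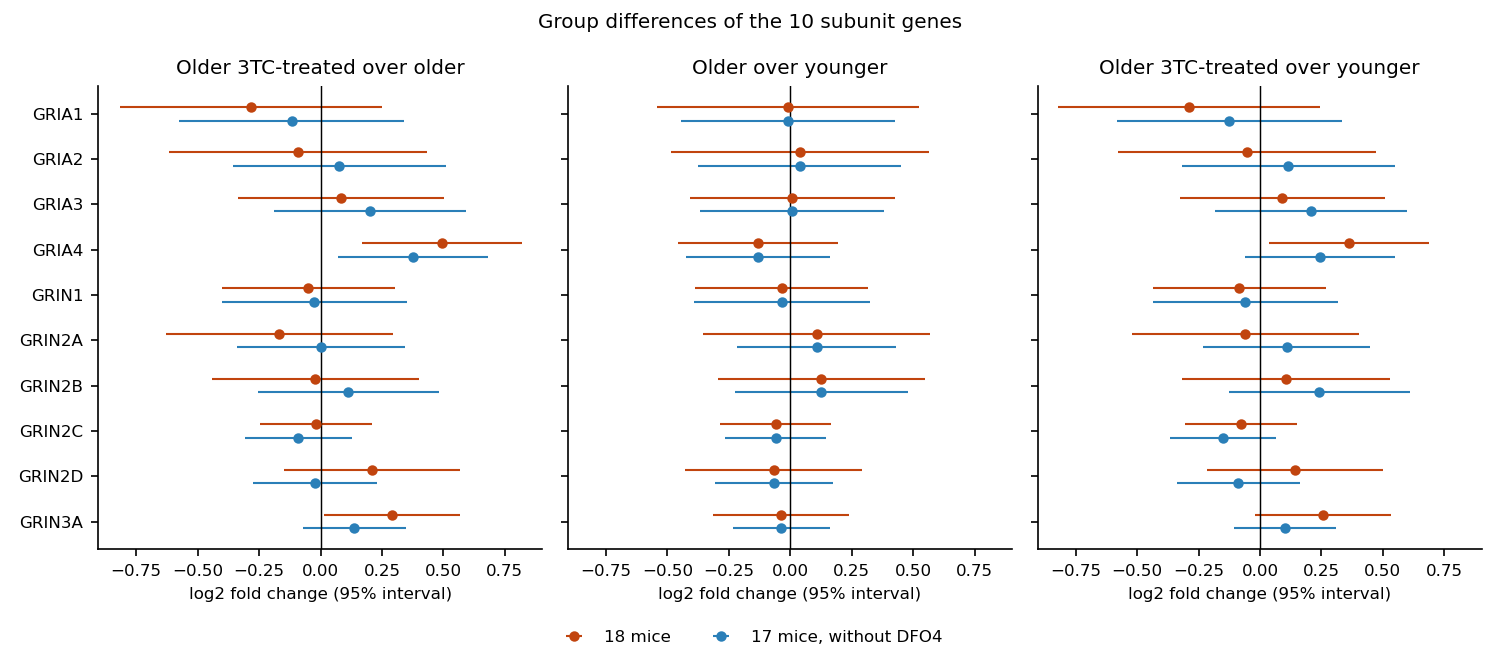
Log2 fold change of each subunit gene with its 95% interval, for older 3TC-treated over older, older over younger, and older 3TC-treated over younger mice, with all 18 mice and with the 17 mice other than DFO4. With 3TC only the GRIA4 interval stays above 0 in both fits (0.49 and 0.38), and every aging interval includes 0.

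The makeup of each family was compared as the share of a subunit in the summed CPM per kb of its family in each mouse. The shares were described and not tested. Their sizes depend on the joined exon lengths, 6043 bp for GRIA1 and 15548 bp for GRIA2. GRIA1 made up 54.4% ± 6.05 of the summed AMPA CPM per kb in older 3TC-treated mice, 61.0% ± 1.47 in older mice and 61.2% ± 2.90 in younger mice (SD, n = 6 each). Of the treated mice, 5 of 6 were below the lowest older mouse and 3 of 6 were below the lowest younger mouse. GRIA3 made up 11.4% ± 1.57 in older 3TC-treated mice, 9.44% ± 0.288 in older mice and 9.45% ± 0.798 in younger mice. For GRIA3, 5 of 6 treated mice were above the highest older mouse and 3 of 6 above the highest younger mouse. GRIA4 made up 9.83% ± 6.77 in older 3TC-treated mice, 5.36% ± 0.698 in older mice and 5.87% ± 0.976 in younger mice. For GRIA4, 4 of 6 treated mice were above the highest older mouse and 3 of 6 above the highest younger mouse. GRIA2 held 24.4%, 24.2% and 23.5% in the same order of groups. Without DFO4 the treated means were 56.3% for GRIA1, 25.5% for GRIA2, 11.02% for GRIA3 and 7.13% for GRIA4. Shares of a whole are tied to each other, so a higher share of GRIA4 by itself lowers that of GRIA1.

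Among NMDA subunits GRIN1 held 31.4% in older 3TC-treated mice, 32.0% in older mice and 33.3% in younger mice. GRIN2B held 22.1%, 22.6% and 21.0%, GRIN2A held 16.9%, 19.1% and 17.99%, and GRIN2C held 14.4%, 14.2% and 14.99% in the same order. GRIN3A held 8.39%, 6.62% and 6.93%, and GRIN2D held 6.78%, 5.52% and 5.86%. Without DFO4 the treated means were 31.1% for GRIN1, 23.9% for GRIN2B, 18.9% for GRIN2A, 13.3% for GRIN2C, 7.27% for GRIN3A and 5.61% for GRIN2D.

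**Figure D3:**
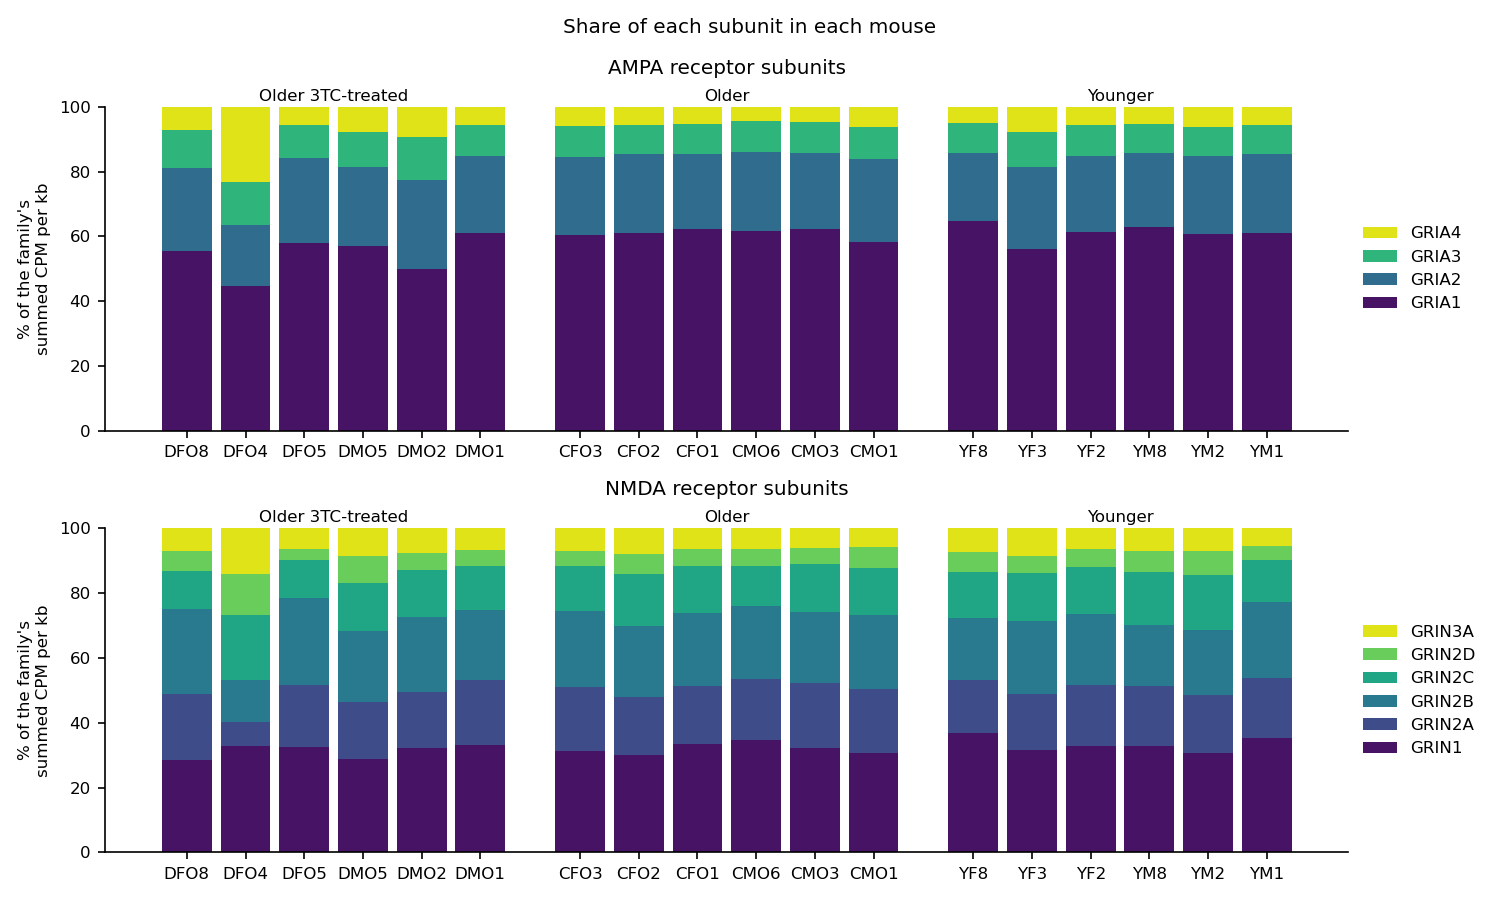
Share of each AMPA subunit (top) and each NMDA subunit (bottom) in the summed CPM per kb of its family, 1 stacked bar per mouse in percent, with older 3TC-treated mice left of older and younger mice. GRIA4 takes 23.3% in DFO4 and 5.59% to 9.45% in the other treated mice, and GRIN2A takes 7.40% in DFO4.

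Ratios within a mouse do not depend on the scaling of libraries, and 2 of them were tested by two-sided exact permutation (6 against 6 mice, smallest possible p 0.00216, adjusted over 4 tests). The log2 ratio of GRIA1 to GRIA2 counts was -0.21 ± 0.17 in older 3TC-treated mice, -0.03 ± 0.08 in older mice and 0.02 ± 0.16 in younger mice (SD, n = 6 each). Treated mice had 0.705 to 0.995 GRIA1 counts per GRIA2 count, against 0.885 to 1.05 in older mice, and 5 of 6 treated mice were below the mean of the older mice. The difference of -0.18 had an exact permutation p of 0.0281 and did not pass the adjustment (adjusted p = 0.113). DFO4 had 0.913 GRIA1 counts per GRIA2 count, within the range of the other treated mice, and without it the difference was -0.19 (exact permutation p = 0.0390, adjusted p = 0.156). Older against younger mice gave -0.04 (exact permutation p = 0.563, adjusted p = 0.699). The log2 ratio of GRIN2A to GRIN2B was -0.89 ± 0.23 in older 3TC-treated mice, -0.71 ± 0.07 in older mice and -0.69 ± 0.13 in younger mice. The 3TC difference of -0.18 (exact permutation p = 0.0823, adjusted p = 0.165) was -0.10 without DFO4 (exact permutation p = 0.165, adjusted p = 0.329), where GRIN2A had 0.407 counts per GRIN2B count in DFO4 and 0.517 to 0.667 in the other treated mice. The aging difference was -0.03 (exact permutation p = 0.699, adjusted p = 0.699). When each treated or older mouse was left out in turn, only the omission of DMO1 brought the adjusted p of the 3TC differences under 0.05. DMO1 was the treated mouse with the highest value of either ratio. Without DMO1 the difference was -0.22 for GRIA1 to GRIA2 (exact permutation p = 0.0130, adjusted p = 0.0260) and -0.24 for GRIN2A to GRIN2B (exact permutation p = 0.00433, adjusted p = 0.0173). DMO2 was the treated mouse with the lowest GRIA1 to GRIA2 ratio. Without it that difference was -0.12 (exact permutation p = 0.0563, adjusted p = 0.225). The exact permutation p of this ratio was also 0.0563 when DFO8, DFO5, CMO3 or CFO1 was left out.

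In DFO4 the subunit genes departed from the other treated mice in opposite directions. GRIA2 had 86.8 CPM in DFO4 against a mean of 260.9 CPM in the other 5 treated mice, a ratio of 0.333. The ratio was 0.335 for GRIN2A, 0.353 for GRIA1, 0.465 for GRIN2B and 0.535 for GRIA3, and for each of these 5 genes DFO4 was the lowest of the 18 mice. GRIN2D had 14.998 CPM in DFO4 against a mean of 7.38 CPM in the other 5, a ratio of 2.03. The ratio was 1.68 for GRIN3A, 1.52 for GRIA4 and 1.31 for GRIN2C, each with DFO4 as the highest of the 18 mice. GRIN1 alone stayed near the others, at 56.6 CPM in DFO4 against 63.1 CPM (ratio 0.898), as did the mean log2 CPM of 10 pan-neuronal markers, 6.68 in DFO4 and 5.95 to 7.08 in the other 17 mice. That mean joins markers that departed in both directions, with DFO4 the highest mouse for 2 of the 10 and the lowest for 2. SLC17A6, which encodes the vesicular glutamate transporter typical of thalamic neurons, had 100.8 CPM in DFO4 and 9.88 to 14.1 CPM in the other treated mice. It had 8.65 to 13.2 CPM in older mice and 9.79 to 22.1 CPM in younger mice. The thalamus list as a whole lay at 2.49 to 4.68 in older 3TC-treated mice (2.49 to 2.77 without DFO4), 2.55 to 2.92 in older mice and 2.58 to 3.35 in younger mice, with 3.35 in YM1. In the 3TC comparison it had 15 of 15 genes above 0 (median 0.50), and without DFO4 it had 4 of 15 above 0 (median -0.06). The part of the thalamus-type RNA in the values of the subunit genes was not tested beyond the fit with the thalamus list as a term. In it GRIA4 had a log2 fold change of 0.40 (unadjusted p = 0.0115) and GRIN3A 0.19 (unadjusted p = 0.109 by edgeR). As DFO4 lay far above the other mice on this list, the term mostly marks that mouse. Without DFO4 and without the term the values were 0.38 and 0.14.

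**Figure D4:**
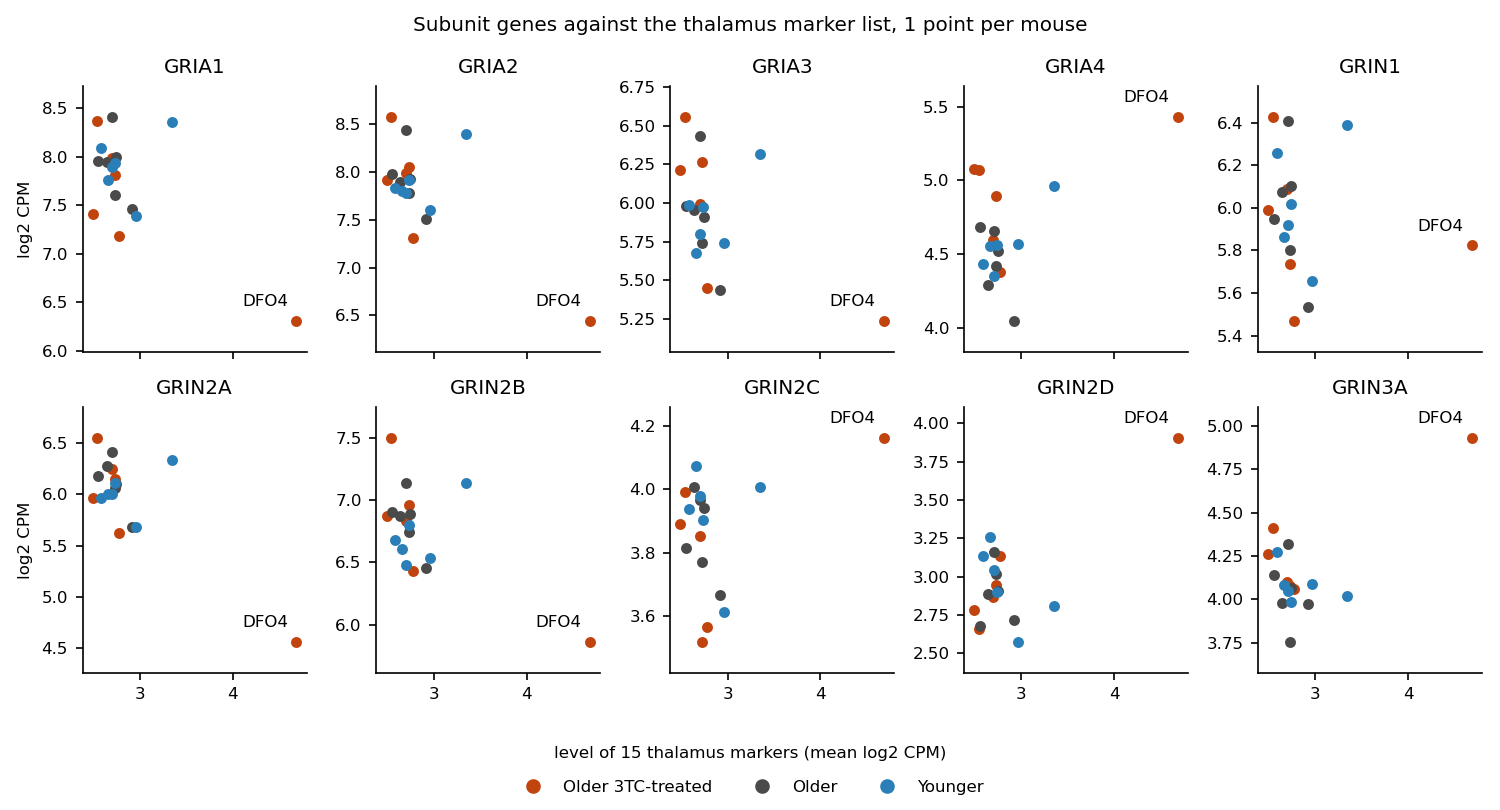
Level of each subunit gene (log2 CPM) against the mean log2 CPM of 15 thalamus markers, 1 point per mouse colored by group. DFO4, at 4.68 on the horizontal axis, lies apart from the other 17 mice (2.49 to 3.35), low for GRIA1, GRIA2, GRIA3, GRIN2A and GRIN2B and high for GRIA4, GRIN2C, GRIN2D and GRIN3A.

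Across mice the subunit genes were correlated with each other, described here by Pearson r of log2 CPM without a test, since all points share their library, its depth and its repeat share. The 15 pairs among GRIA1, GRIA2, GRIA3, GRIN1, GRIN2A and GRIN2B had r of 0.59 to 0.97 over 18 mice and 0.75 to 0.94 over the 17 mice other than DFO4. Of all 45 pairs, 15 had r below 0 over 18 mice and 6 without DFO4. Several pairs changed sign with that mouse: GRIA1 and GRIA4 had r = -0.23 with it and 0.36 without it, and GRIN2A and GRIN3A had -0.54 and 0.35. GRIN2D followed none of the other members without DFO4, with r between -0.27 and 0.23.

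**Figure D5:**
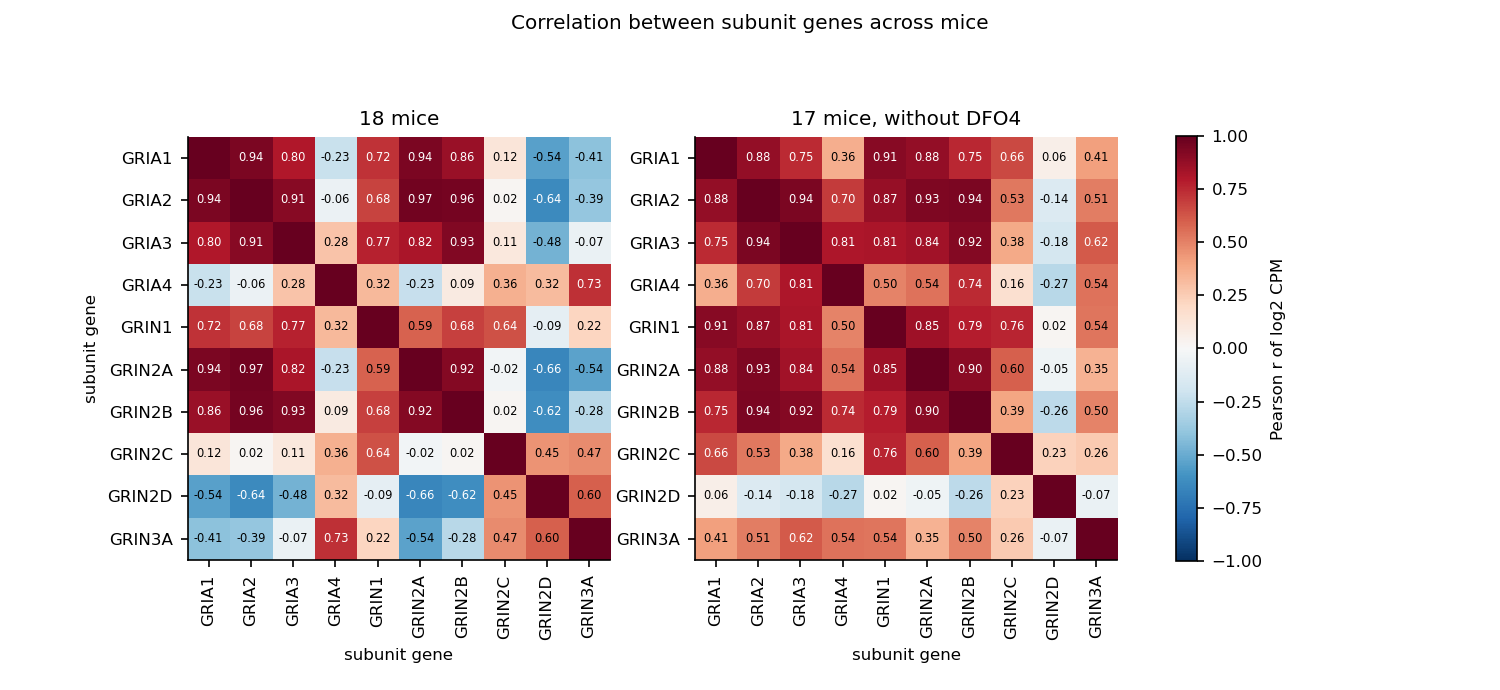
Pearson r of log2 CPM between each pair of subunit genes across 18 mice (left) and across the 17 mice other than DFO4 (right), on a color scale from -1 to 1. The block of GRIA1, GRIA2, GRIA3, GRIN1, GRIN2A and GRIN2B is positive in both, and 15 of 45 pairs are negative at left and 6 at right.

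Each gene was set against 8 lists of brain region and cell type markers (80 relations, 100000 permutations, Benjamini-Hochberg over the 80), and 33 relations had an adjusted p under 0.05 by Pearson r, 26 of them also by Spearman rho. The list levels come from the same libraries as the members and share their depth and repeat share, and these p-values test only whether r differs from 0, so they do not tie a member to a cell type. GRIA1 followed the CA1 pyramidal list with r = 0.90 and rho = 0.89 (n = 18, permutation p = 1e-05 for each, the smallest possible, adjusted p = 0.000267). The value of r was 0.81 without the 2 mice farthest from the median of the list, 0.79 without DFO4, and 0.93 in older 3TC-treated, 0.90 in older and 0.76 in younger mice. GRIA1 also followed the CA2 and CA3 list (r = 0.79, rho = 0.93, adjusted permutation p = 0.0006 and 0.000267), with r = 0.81 without the 2 farthest mice. GRIA3 followed the interneuron list (r = 0.91, rho = 0.91, adjusted permutation p = 0.000267 for each), with r = 0.85 without the 2 farthest mice and 0.90, 0.95 and 0.97 in treated, older and younger mice. The interneuron list also had r of 0.68 to 0.86 with GRIA1, GRIA2, GRIN1, GRIN2A and GRIN2B. Its r was 0.34 with GRIA4 (adjusted permutation p = 0.236), -0.32 with GRIN2D (adjusted permutation p = 0.259), 0.29 with GRIN2C and 0.16 with GRIN3A. Without DFO4 these r were 0.66 for GRIA4, -0.16 for GRIN2D, 0.46 for GRIN2C and 0.68 for GRIN3A. GRIN2C followed the astrocyte list with r = 0.67 (adjusted permutation p = 0.00942) and rho = 0.61 (adjusted permutation p = 0.0313), and r was 0.50 without the 2 farthest mice and 0.59 without DFO4. Without DFO4 the astrocyte list had higher r with GRIA1 (0.94), GRIA2 (0.93), GRIN1 (0.91), GRIN2A (0.91), GRIA3 (0.86) and GRIN2B (0.86) than with GRIN2C, and its r with GRIA1 was above that of the CA1 list. GRIA4 followed the astrocyte list with r = 0.68 (adjusted permutation p = 0.0061) and rho = 0.59 (adjusted permutation p = 0.0354), with r = 0.57 without the 2 farthest mice. GRIN2A against the thalamus list had r = -0.79 (adjusted permutation p = 0.0397) but rho = -0.40 (adjusted permutation p = 0.174), and r = -0.14 without DFO4, so this relation rested on that mouse. GRIA2 against the striatal projection neuron list had r = -0.90 and rho = -0.72 (adjusted permutation p = 0.00048 and 0.00689). That r was -0.77 without DFO4, and -0.998, -0.34 and -0.76 in treated, older and younger mice. The striatal list also had r of -0.86 to -0.74 with GRIA1, GRIA3, GRIN2A and GRIN2B, and 0.64 with GRIN2D.

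Most members also moved with the share of counts in repeats, a relation added after seeing the data. CPM is counts per M of a library that holds the repeats, so part of such a relation can be built in. How far TMM scaling removes that part was not tested, and the p-values test only whether r differs from 0. GRIN1 had r = -0.90 and rho = -0.85 with the repeat share over 18 mice (adjusted permutation p = 0.0001 for r, over 20 added relations). Its r was -0.88 without YM1 and DFO5, the 2 farthest mice. Within groups r was -0.88 in older 3TC-treated, -0.98 in older and -0.91 in younger mice. For GRIA1 r was -0.57 over 18 mice and -0.90 without DFO4, and for GRIA2 it was -0.56 and -0.92. The mice with the lowest repeat shares, YM1 (63.4%), DFO5 (65.9%) and CMO6 (68.3%), were the highest of their groups for GRIA1, GRIA2, GRIA3, GRIN1, GRIN2A and GRIN2B. Those with the highest shares, CFO2 (85.7%) and DMO5 (85.1%), were the lowest of their groups for GRIN1, with 46.4 CPM in CFO2 and 44.3 CPM in DMO5. Repeat shares spanned like ranges in the groups, 65.9% to 85.1% in older 3TC-treated, 68.3% to 85.7% in older and 63.4% to 83.6% in younger mice. With the share as a term, the 3TC difference of GRIA4 was 0.47 (unadjusted p = 0.000821, adjusted p = 0.9999 by edgeR) and that of GRIN3A was 0.28 (unadjusted p = 0.0279).

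Between the sexes no subunit gene was called, where 1.53% of all features were (257 of 16774), and 0 of 10 had an unadjusted p under 0.05, where 2.76% did. The female against male difference was below 0 for 8 of 10 (median -0.05), where 7713 of 15635 genes were above 0 (median -0.001). For the subunit genes this difference ran from -0.15 (GRIN2A) to 0.16 (GRIN3A) on the log2 scale. Without DFO4, a female, it was below 0 for 5 of 10, with 0 called against 1.36% of all features, and GRIN2D was the lowest at -0.18 (unadjusted p = 0.0585).

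The sex difference of the 3TC response, female minus male, was above 0 for 10 of 10 genes with a median of 0.38, beside a median of 0.04 over all genes. None was called, as was the case for 0% of all features, and 0 of 10 had an unadjusted p under 0.05, where 7.70% of all features did. Without DFO4 it was again above 0 for 10 of 10, with a median of 0.57 beside -0.04 over all features, 0 called (0% of features) and 1 with an unadjusted p under 0.05 (7.12% of features). That gene was GRIA3, at 0.78 (SE 0.36, unadjusted p = 0.0460, adjusted p = 0.419 by edgeR), followed by GRIA2 at 0.82 (SE 0.39, unadjusted p = 0.05003). GRIA3 had 77.0 CPM in DFO8, 94.2 in DFO5 and 37.7 in DFO4, against a mean of 55.6 ± 10.6 CPM in older females, and averaged 60.5 ± 15.4 CPM in treated males against 67.2 ± 17.1 in older males (SD, n = 3 each). The treated females without DFO4 are only DFO8 and DFO5, and DFO5 has the lowest repeat share of the older mice of both groups, while the treated male DMO5 has the highest share of its group. The pan-neuronal markers also had this sex difference above 0 for 10 of 10 genes over the 18 mice, with a median of 0.52. The part of the repeat share and of the pan-neuronal level in the sex difference was not tested. The sex difference of the aging response was below 0 for 8 of 10 with a median of -0.05, beside a median of 0.002 over all genes (0 called against 0% of all features, 0 with an unadjusted p under 0.05 against 0.191%).

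Genes that assemble, anchor and regulate these receptors were taken from 8 lists, and 0 of their genes were called in the aging or the 3TC comparison. Of 20 AMPA receptor auxiliary subunits, 9 were above 0 with 3TC (14 without DFO4) and 3 with aging. OLFM2, an AMPA receptor-associated secreted protein, had 9.03 ± 1.86 CPM in older 3TC-treated mice, 7.09 ± 0.884 in older mice and 8.27 ± 0.547 in younger mice (SD, n = 6 each), with a log2 fold change of 0.35 with 3TC (SE 0.12, unadjusted p = 0.00728) and 0.31 without DFO4. CACNG2 (stargazin), which brings AMPA receptors to the membrane, had a 3TC log2 fold change of 0.30 (unadjusted p = 0.0286) and 0.20 without DFO4 (unadjusted p = 0.1001). Of 19 genes of AMPA receptor trafficking and anchoring, 14 were above 0 with 3TC (12 without DFO4) and 4 with aging. NPTX2, a secreted pentraxin that clusters AMPA receptors, had a log2 fold change of -0.32 with aging (SE 0.11, unadjusted p = 0.00885) and 0.05 with 3TC without DFO4.

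Of 15 postsynaptic scaffold genes, 1 was above 0 with aging (median -0.08), and 5 with 3TC (11 without DFO4). The smallest p in the list belonged to HOMER3 with 3TC, at -0.29 (unadjusted p = 0.0671). Of 21 calcium-dependent kinases and phosphatases, which act downstream of NMDA receptors, 7 were above 0 with 3TC (10 without DFO4) and 4 with aging. CAMK2D had 31.2 ± 6.42 CPM in older 3TC-treated mice, 22.9 ± 2.25 in older mice and 23.4 ± 3.32 in younger mice (SD, n = 6 each), and was 0.35 with 3TC without DFO4 (unadjusted p = 0.00868). Of 10 kainate and delta receptor genes, 7 were above 0 with 3TC (6 without DFO4) and 5 with aging, and of 8 metabotropic receptor genes 6 were above 0 with 3TC (7 without DFO4) and 3 with aging. In the list of 14 genes that supply and clear glutamate, glycine and D-serine, 7 were above 0 with 3TC (10 without DFO4) and 3 with aging. Its smallest p belonged to SLC17A6, whose 3TC log2 fold change of 1.25 (unadjusted p = 0.0144) was 0.09 without DFO4 (unadjusted p = 0.605). Of 13 genes that edit or splice glutamate receptor transcripts, 9 were above 0 with 3TC (11 without DFO4) and 6 with aging, and ADARB1, the enzyme that edits GRIA2, was -0.26 with aging (unadjusted p = 0.366). Beside these counts, 8350 of 15635 genes were above 0 with 3TC and 7257 with aging, and the pan-neuronal markers were above 0 for 8 of 10 with 3TC (median 0.10) and for 0 of 10 with aging (median -0.11). The part of the pan-neuronal level in the counts of these lists was not tested.

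The genes whose levels were most like each member across the 18 mice (Pearson r of log2 CPM over all genes) were SCN3B for GRIA1 (r = 0.99, and 0.98 without DFO4), RAPGEF5 for GRIA2 (0.98 and 0.97), FAM171B for GRIA3 (0.98 and 0.98) and PDE4D for GRIA4 (0.95 and 0.93). For the NMDA subunits they were RNF10 for GRIN1 (0.98 and 0.98), TCF4 for GRIN2A (0.99 and 0.98), CELF2 for GRIN2B (0.97 and 0.95) and PCYT2 for GRIN2C (0.91 and 0.89). GRIN2D and GRIN3A had looser partners once DFO4 was left out, ADSSL1 for GRIN2D (0.88 and 0.66) and CAMK2N2 for GRIN3A (0.93 and 0.85). The next in order were MAST3, DLGAP1, PPP1R12A, RIMS2, AMPH, CHN1, RAB11FIP2, WDR18, KCNH2 and RGMA for the members in the same order.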

How the data were processed

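Hippocampus RNA of 18 mice was used, each a separate animal, grouped by the sample labels. The authors trimmed reads with fastp, aligned them with STAR to mm10 and deposited 1 table of raw counts for 15644 genes and 1146 repeats, with TEtranscripts for the repeats. The labels name polyA RNA and the study's methods total RNA without ribosomal RNA, and this was not settled. Features with a mean count above 10 (15635 genes and 1139 repeats) entered a test with edgeR 4.0.16, run in R 4.3.3 (TMM, quasi-likelihood test, 3 groups in 1 model, Benjamini-Hochberg over 16774 features, threshold 0.05). DESeq2 1.42.0, other scalings and filters, covariates and leaving out each mouse were alternatives, and the code was tested on simulated data. CPM is counts per M of the TMM-scaled library, and log2 CPM used a prior count of 2. Values per kb used GENCODE vM21 exon lengths, matched for 15584 genes. Permutation tests used Python 3.11.15 with scipy 1.17.1. Mice of a group always differed by more than sampling noise, with a chi-square of at least 4.57 per degree of freedom. Total counts were 34.6 to 49.1 M per mouse. The text names all 10 members, up to 2 genes with the smallest p per pathway list and comparison, and the 2 genes most like each member. Not all of them are described. The members and lists were chosen with earlier results of these data known. The marker lists gave levels, counts, relations across mice and terms in alternative fits.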

Additional observations from a re-analysis of the deposited data

Results flagged for a closer look

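Of 36 sets of 6 mice (each member gene and each of the 2 ratios in each group), 5 held a mouse that lay far from the others of its group (Dixon's test of the gap to the nearest mouse), where chance gives about 1 in 20. GRIN2D had 14.998 CPM in DFO4 and 6.32 to 8.77 CPM in the other older 3TC-treated mice. GRIN3A had 30.6 CPM in DFO4 and 16.7 to 21.3 CPM in the other older 3TC-treated mice. In younger mice, GRIA2 had 338.7 CPM in YM1 and 194.0 to 241.7 CPM in the others, and GRIA4 had 31.2 CPM in YM1 and 20.4 to 23.8 CPM in the others. GRIN3A had 19.3 CPM in YF8 and 15.8 to 17.04 CPM in the other younger mice.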

How the results depend on the processing

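No member was called in any of the group comparisons under any setting, and the smallest adjusted p over 1160 member values was 0.478. The direction of differences depended on the setting for 84 of these values, 29 of them with all mice kept, and the causes were not tested. In the aging comparison the log2 fold change was -0.028 for GRIA2 and -0.049 for GRIA3 with total counts only, -0.073 and -0.053 for them with the thalamus list as a term, and 0.023 for GRIA1 with the neocortex list as a term. With the pan-neuronal list as a term it was 0.10 for GRIA1 and 0.060 for GRIN1, and with the repeat share as a term 0.051 and 0.014 (both terms added after seeing the data). In the 3TC comparison it was 0.0099 for GRIN2B and 0.0098 for GRIN2C with total counts only, 0.049 for GRIN2B with the thalamus term, -0.10 for GRIA3 and 0.034 for GRIN2C with the neocortex term and -0.011 for GRIA3 with the pan-neuronal term. Against younger mice it was -0.025 for GRIA3 in treated mice with the neocortex term.

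Mice of the same sex and label number in different groups correlated at -0.55 to 0.34 over 7 pairs, with 4 over 0.1. Mice with unlike numbers were not compared, so whether the number marks anything shared cannot be told. With sex and label number as a replicate block, a fit with 4 residual degrees of freedom, 0 features were called in each comparison. Under that block the aging values were -0.18 for GRIA2, -0.23 for GRIA3, -0.065 for GRIN2A, -0.071 for GRIN2B and 0.0049 for GRIN2D. The 3TC values under the block were 0.20 for GRIA2, 0.087 for GRIN1, 0.11 for GRIN2A, 0.18 for GRIN2B and -0.23 for GRIN2D, against 0.21 for GRIN2D and -0.17 for GRIN2A without the block, and GRIA1 was -0.0021 under it. The values against younger mice were 0.022 for GRIA2, 0.047 for GRIN2A and -0.22 for GRIN2D.

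Leaving out 1 mouse gave these ranges where the sign changed. With aging they were -0.13 to 0.084 for GRIA1, -0.082 to 0.15 for GRIA2, -0.11 to 0.090 for GRIA3, -0.13 to 0.043 for GRIN1 and -0.098 to 0.016 for GRIN3A. With 3TC they were -0.29 to 0.077 for GRIA2, -0.050 to 0.20 for GRIA3, -0.17 to 0.036 for GRIN1, -0.32 to 0.0019 for GRIN2A, -0.20 to 0.11 for GRIN2B, -0.091 to 0.040 for GRIN2C and -0.021 to 0.28 for GRIN2D. In treated against younger mice they were -0.26 to 0.12 for GRIA2, -0.048 to 0.21 for GRIA3, -0.21 to 0.11 for GRIN2A, -0.082 to 0.24 for GRIN2B and -0.088 to 0.21 for GRIN2D. In female against male mice they were -0.23 to 0.021 for GRIA1, -0.14 to 0.032 for GRIA3, -0.14 to 0.0031 for GRIN1, -0.15 to 0.064 for GRIN2B and -0.18 to 0.026 for GRIN2D. The log2 ratio of GRIN2A to GRIN2B ranged from -0.24 to -0.098 with 3TC and from -0.059 to 0.016 with aging, and that of GRIA1 to GRIA2 from -0.22 to -0.12 and from -0.090 to 0.0041. Of 80 relations to marker lists, 29 to 38 had an adjusted p under 0.05 when 1 mouse was left out, against 33 with all mice.

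With 6 mice per group and these spreads, differences smaller than about the 95% intervals given cannot be seen. Counts per gene do not separate isoforms, the strand of counting is not given, and repeats, whose share varies between mice, enter the library sizes.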

Other observations

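The choroid plexus markers, which belong to a tissue that adjoins the hippocampus, ranged widely between mice, from 1.45 to 3.84 mean log2 CPM. In the 3TC comparison 0 of 10 of them were above 0 (median -0.52, and -0.74 without DFO4). Of 15 neocortex markers, 14 were above 0 with 3TC (median 0.16) and 14 without DFO4 (median 0.13). Of 9 CA1 pyramidal markers, 0 were above 0 with 3TC (median -0.15) and 4 without DFO4 (median -0.05), and of 11 CA2 and CA3 markers, 2 were above 0 (median -0.10) and 3 without DFO4 (median -0.14). Of 12 dentate granule markers, 1 was above 0 with 3TC (median -0.19) and 1 without DFO4 (median -0.16). None of these genes was called. Their part in the values of the subunit genes was not tested, except for the neocortex list as a term in fits that included DFO4.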
